A study of Mus musculus with 9 samples.

Results

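The genes described here are the 2'-5' oligoadenylate synthetase (OAS) family members Oas1a, Oas2, Oas3, Oasl1 and Oasl2, the RIG-I-like receptor genes Ddx58, Ifih1 and Dhx58, and Zbp1. They were taken by gene symbol from the deposited expression table, which listed all 9 of them among 6462 genes. The measurements come from BV2 cells, an immortalized line of mouse microglia. Cells were either untreated (0 h) or treated with bacterial lipopolysaccharide (LPS) at 200 ng/ml for 1 h or for 12 h, and each of the 3 groups had 3 libraries of messenger RNA. All libraries come from this 1 line. As the later times have no untreated counterpart, the effect of LPS cannot be told apart from that of hours in culture.

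OAS enzymes bind double-stranded RNA and make short 2'-5' linked oligoadenylates, a second messenger of the antiviral response. RIG-I (encoded by Ddx58) and MDA5 (Ifih1) are cytosolic helicases that detect viral RNA and signal through the mitochondrial adaptor MAVS to interferon genes, while LGP2 (Dhx58) has no signaling domain of its own and modulates them. ZBP1 recognizes Z-form nucleic acids and can start necroptosis through RIPK3 and MLKL. The genes of this set are known interferon-stimulated genes, and LPS can induce interferon-β through Toll-like receptor 4 and the adaptor TRIF.

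Values are FPKM, fragments scaled by transcript length and by library size, and comparisons between genes or libraries rest on that scaling. The values of the listed genes summed to between 195872 FPKM (untreated library 2) and 228207 (12 h library 3). Of the 13 microglial marker genes looked for, 9 were listed, and their summed level was 1162 to 1250 FPKM in untreated libraries, 1109 to 1142 at 1 h and 1048 to 1094 at 12 h. At 12 h, 3 of the 8 tested markers were called higher, namely Itgam (27.9 ± 0.696 to 70.3 ± 2.43 FPKM, SD, n = 3), Adgre1 (36.6 ± 1.19 to 62.0 ± 2.23) and Fcgr1 (17.3 ± 0.431 to 35.7 ± 0.873). The 4 called lower were Trem2 (90.5 ± 2.68 to 47.5 ± 1.80), Csf1r (66.1 ± 2.76 to 47.5 ± 1.03), Tyrobp (559.8 ± 30.5 to 412.3 ± 15.2) and Cx3cr1 (6.27 ± 0.407 to 3.93 ± 0.49). The shares at 12 h, 37.5% higher and 50% lower, stood beside 41.1% and 40.6% of all tested genes. At 1 h none was called higher and 7 lower (87.5%), against 24.1% and 34.9% of all tested genes. P2ry12, a marker of resting microglia, was below the filter on level, with 1.24 ± 0.336 FPKM before treatment and 0.219 ± 0.0564 at 12 h. What these shifts have to do with the results below was not tested. None of the markers of astrocytes (6) and neurons (7) looked for was listed, which gives no level for them, as the listed genes are a selection. Of 6 oligodendrocyte markers Olig2 was listed, at 0 in all libraries but untreated library 2 (0.0841 FPKM). The steps between low values put the sequencing depths of the 9 libraries within 1.17 times of the shallowest, and the absolute number of fragments is unknown. That search covered only small differences in depth, so a much larger one could not have been found. Some of the estimates rest on few genes (9 of 69 low genes for 12 h library 1). Libraries of 1 group correlated across genes at 0.9981 to 0.9986 in log2(FPKM + 1), and those of different groups at 0.9241 to 0.9698; genes are not independent replicates. The table is a selection of genes by a deposited q-value, of which the highest was 0.0999, so the tested genes were already chosen to differ. Nothing in the labels tells separate cultures from repeat libraries of 1 culture, and the p-values therefore measure the spread between these libraries, which may be technical. In cultured cells measured in bulk, a change in the share of cells that express a gene cannot be told apart from a change per cell.

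After 12 h of LPS, the OAS genes and the helicase genes were several-fold higher than in untreated cells, while after 1 h they stood close to their starting levels. Oasl2 had the largest difference of the set at 12 h and Oas2 the smallest of the tested ones. Ifih1 was low throughout and Zbp1 was listed at 0 in nearly every library. Of the 9 genes, 7 passed the filter of a mean of at least 1 FPKM, and each of those 7 was above 1 FPKM in all 9 libraries, so none passed through its 12 h level alone.

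**Figure D1:**
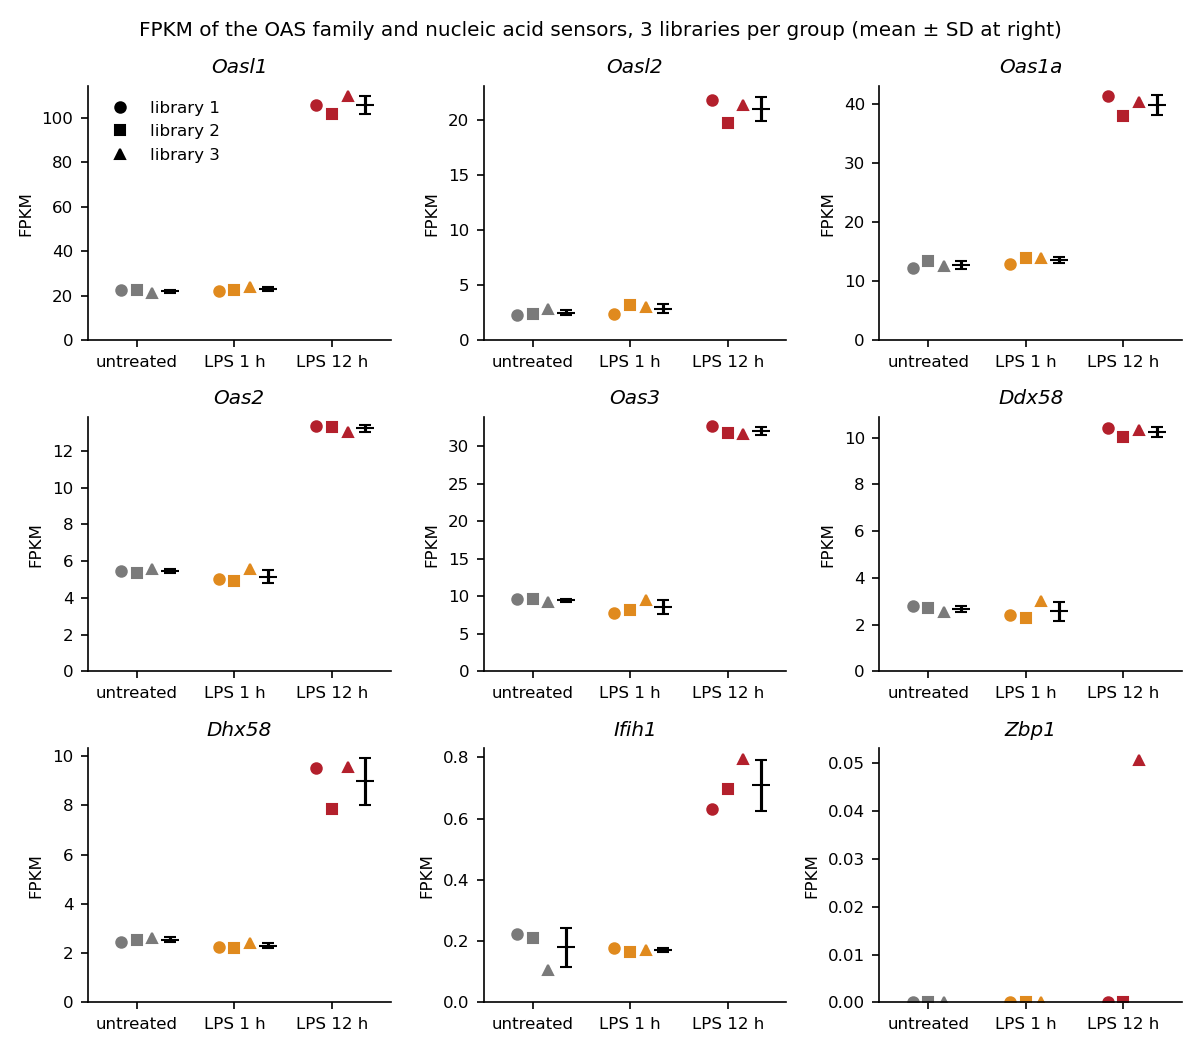
FPKM of the 9 genes in each library, by group (x axis), with a separate linear y axis from 0 for each gene; points are libraries and the bar at the right of each group is the mean ± SD of 3 libraries (no bar for Zbp1). In all genes but Zbp1 the 12 h points lie above those of both other groups, whose points overlap or nearly so.

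Oasl1 was the most abundant of the set in every group. Its product has no synthetase activity and is known to restrain the translation of Irf7. It was at 22.5, 22.5 and 21.3 FPKM in the untreated libraries 1 to 3, at 22.4, 22.5 and 24.0 at 1 h, and at 106, 102 and 109.9 at 12 h. The 1 h values overlapped the untreated ones, and all 12 h values were far above both. The 12 h mean was 4.79 times the untreated mean (105.9 ± 4.05 against 22.1 ± 0.656 FPKM, SD, n = 3), a difference of 2.21 in log2(FPKM + 1) with a standard error (SE) of 0.0385 and an adjusted p = 2.65e-15 (limma, adjusted over all tested genes as throughout).

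Oasl2, which lies next to Oasl1 on chromosome 5 and encodes an active synthetase, started about as low as Ddx58 and Dhx58. Its untreated libraries were at 2.34, 2.42 and 2.84 FPKM, the 1 h libraries at 2.39, 3.18 and 3.07, and the 12 h libraries at 21.9, 19.7 and 21.4. The untreated and 1 h ranges overlapped and the 12 h range was well apart. This was 8.29 times the untreated mean on the FPKM scale and a log2 difference of 2.64 (SE 0.0765, adjusted p = 4.36e-13). Within each library the ratio of Oasl2 to Oasl1, which does not depend on library scaling, was 0.104, 0.108 and 0.133 in untreated cells, 0.107, 0.141 and 0.128 at 1 h, and 0.207, 0.194 and 0.195 at 12 h. The ratio at 12 h thus exceeded every earlier one, with an exact permutation p = 0.1, the smallest that 3 libraries against 3 allow (two-sided).

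Oas1a, a small synthetase with 1 catalytic unit, was at 12.2, 13.5 and 12.6 FPKM in untreated cells, at 13.0, 13.96 and 13.9 at 1 h, and at 41.3, 38.0 and 40.3 at 12 h. The early groups overlapped, and the 12 h mean was 3.13 times the untreated one (log2 difference 1.57, SE 0.0455, adjusted p = 4.33e-13). Oas1a and its neighbour Oas1g are close copies: 40.9% of all 100-base windows of the longest Oas1a transcript in GENCODE M21, and 57.6% of its 50-base windows, also occur in Oas1g. How reads of the shared part were assigned is not given in the sources used here, so the split between these 2 genes is uncertain. Oas1g was at 5.47 ± 0.145 FPKM in untreated cells, 5.67 ± 0.84 at 1 h and 22.9 ± 0.471 at 12 h (SD, n = 3), and the ratio of Oas1a to Oas1g went from 2.33 ± 0.112 to 1.74 ± 0.0447 (exact permutation p = 0.1, the smallest possible). The 2 other OAS members of the same cluster shared no 100-base window with another gene.

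Oas2, whose product holds 2 joined OAS units, was at 5.46, 5.33 and 5.55 FPKM in untreated cells, at 5.02, 4.89 and 5.55 at 1 h, and at 13.3, 13.3 and 13.0 at 12 h. Its rise at 12 h was the smallest of the tested genes, at 2.43 times the untreated mean (log2 difference 1.14, SE 0.0474, adjusted p = 2.18e-11). Oas3, the longest of the synthetases, was at 9.58, 9.58 and 9.27 FPKM in untreated cells, at 7.83, 8.23 and 9.56 at 1 h, and at 32.6, 31.8 and 31.6 at 12 h. The 12 h mean was 3.38 times the untreated mean (log2 difference 1.65, SE 0.0547, adjusted p = 1.86e-12). The ratio of Oas3 to Oas2 within a library rose from 1.74 ± 0.0643 to 2.42 ± 0.031 without overlap (exact permutation p = 0.1, the smallest possible), although the 2 genes are neighbours.

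**Figure D2:**
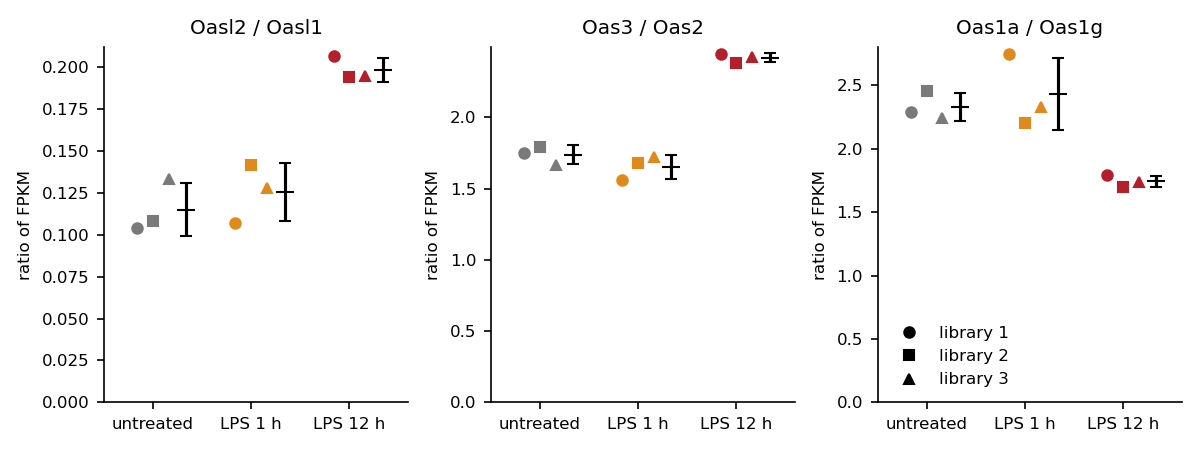
Ratio of FPKM within each library (y axis, linear from 0) for 3 pairs of OAS genes, by group (x axis); points are libraries and the bar at the right of each group is the mean ± SD of 3 libraries. At 12 h the ratios of Oasl2 to Oasl1 (0.194 to 0.207) and of Oas3 to Oas2 (mean 2.42) are above all earlier ones, and that of Oas1a to Oas1g (mean 1.74) is below them.

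The RIG-I gene Ddx58 was at 2.79, 2.72 and 2.54 FPKM in untreated cells, at 2.40, 2.28 and 3.03 at 1 h, and at 10.4, 10.005 and 10.3 at 12 h. The 1 h libraries lay on both sides of the untreated ones, and the 12 h mean was 3.82 times the untreated mean (log2 difference 1.61, SE 0.068, adjusted p = 2.61e-11). The LGP2 gene Dhx58 was at 2.45, 2.55 and 2.63 FPKM, then at 2.27, 2.21 and 2.42 at 1 h, all below the untreated ones, and at 9.52, 7.85 and 9.54 at 12 h, with 12 h library 2 the lowest of its group. Its 12 h mean was 3.53 times the untreated mean (log2 difference 1.49, SE 0.0658, adjusted p = 4.36e-11). The ratio of Ddx58 to Dhx58 was 1.06 ± 0.0883 in untreated cells, 1.11 ± 0.119 at 1 h and 1.15 ± 0.108 at 12 h, with overlapping libraries (exact permutation p = 0.4 for 12 h against untreated).

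The MDA5 gene Ifih1 was at 0.225, 0.21 and 0.107 FPKM in untreated cells, at 0.178, 0.163 and 0.171 at 1 h, and at 0.632, 0.696 and 0.796 at 12 h. The 12 h libraries were all above the others, with a mean 3.92 times the untreated one. Its level is below the filter, so it had no test of its own in the fit. Without the filter its log2 difference was 0.53, a value held down by the added 1 FPKM (adjusted p = 1.57e-06). Per transcript length, Ifih1 stood at 0.0666 ± 0.0211 of the Ddx58 level in untreated cells and 0.0691 ± 0.00821 at 12 h. Zbp1 was listed at 0 in 8 libraries and at 0.0506 FPKM in 12 h library 3, so no change can be read for it. The authors' deposited table gives it a q-value of 0.0587, below the highest listed one, with that 1 library above 0.

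**Figure D3:**
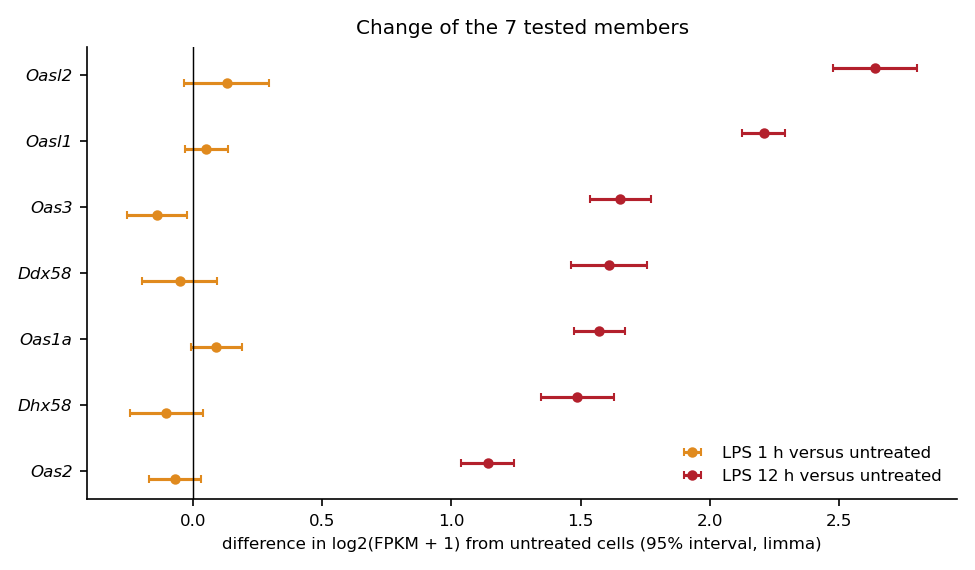
Difference in log2(FPKM + 1) from untreated cells (x axis) for the 7 tested genes (y axis), with 95% intervals from limma, at 1 h (lower point of each pair) and 12 h (upper point). The 12 h values run from 1.14 for Oas2 to 2.64 for Oasl2, and the 1 h values lie between -0.14 and 0.13.

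In the comparison of 12 h with untreated cells, the 7 tested genes were all called higher, each with a log2 difference of at least 1. Among all 5643 tested genes, 41.1% were called higher, 41.9% had all 3 libraries above the other 3, and 4.54% were called higher with a log2 difference of at least 1. The median difference of the 7 was 1.61, against 0.03 over all tested genes. By size of increase Oasl2 was in place 33 and Oasl1 in place 55 of 5643. Oas3, Ddx58, Oas1a and Dhx58 were in places 114, 115, 119 and 130, and Oas2 in place 210. The same 7 genes were higher at 12 h than at 1 h, where 41.9% of tested genes were called higher. That comparison shares its 12 h libraries with the other one. The differences between 12 h and 1 h ran from 1.21 for Oas2 (adjusted p = 1.39e-11) to 2.51 for Oasl2 (adjusted p = 1.03e-12).

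**Figure D4:**
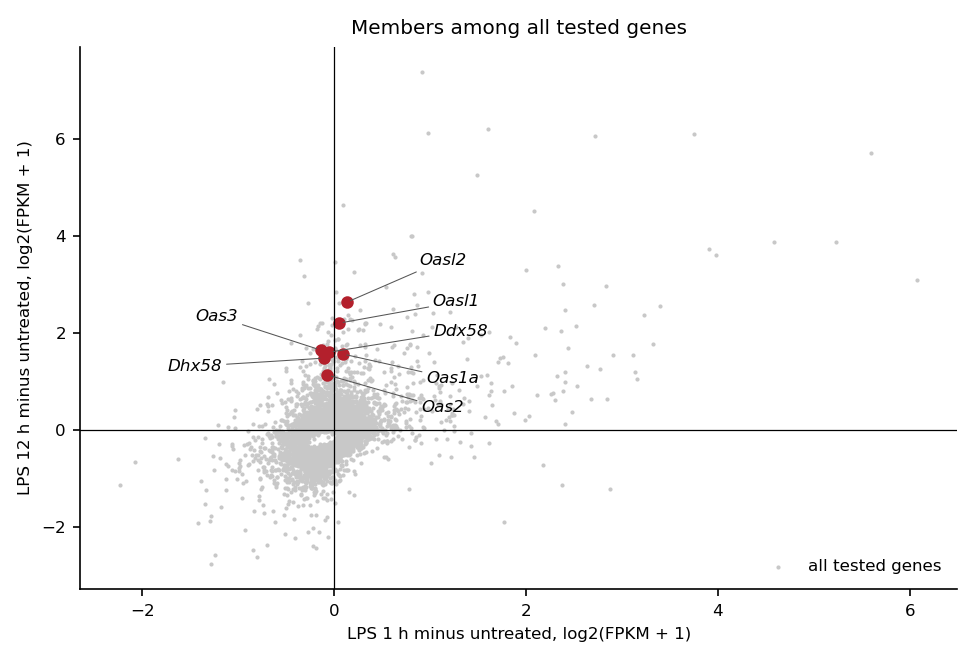
Each point is 1 of 5643 tested genes, with the difference from untreated cells at 1 h (x axis) and at 12 h (y axis), both in log2(FPKM + 1); the 7 tested genes of the set are red. Both axes use the same untreated libraries, so the axes are not independent. The 7 genes lie near 0 at 1 h and between 1.14 and 2.64 at 12 h.

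At 1 h, no tested gene of the set was called higher (background 24.1% of tested genes) and 1 was called lower (background 34.9%). That gene was Oas3, with a log2 difference of -0.14 (SE 0.0547, adjusted p = 0.0416) and ranges that overlapped through 1 h library 3. The call was lost in 11 of 19 alternatives, with adjusted p up to 0.199, so it depends on the settings and on single libraries (untreated libraries 1, 2 and 3, 1 h libraries 1 and 2, and 12 h library 1 each ended it when left out). The others did not pass: Oasl2 at 0.13 (adjusted p = 0.153), Oas1a at 0.09 (adjusted p = 0.0978), Oasl1 at 0.05 (adjusted p = 0.256), Ddx58 at -0.05 (adjusted p = 0.535), Oas2 at -0.07 (adjusted p = 0.226) and Dhx58 at -0.10 (adjusted p = 0.188). In Dhx58 the 3 libraries at 1 h were all below the 3 untreated ones, which held for 38.2% of tested genes. The widest of their 95% intervals, that of Oasl2, ran from -0.03 to 0.30, so a change of the size found at 12 h is outside all 7 intervals at 1 h. Single settings moved some of these across the threshold: Oasl2 with quantile normalization (0.26, adjusted p = 0.00694) or without 1 h library 1 (0.22, adjusted p = 0.013), Oas1a without untreated library 2 (0.13, adjusted p = 0.0342), and Ddx58 without 1 h library 3 (-0.14, adjusted p = 0.0435). At 12 h, each of the 7 genes passed in every alternative that tested it. With the filter raised to 5 FPKM, Oasl2 and Ddx58 were tested only through their 12 h level, so that alternative adds nothing for them.

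At 1 h and at 12 h, the 7 genes did not scatter evenly between libraries of a group. In untreated libraries 1 to 3, the number above the group mean was 4, 5 and 3 of the 7 (49.8%, 50% and 51% of all tested genes). In 1 h library 3, all 7 were above their 1 h mean, against 53.8% of all tested genes, and in 1 h library 1 none was, against 46.4%. At 12 h, library 1 had all 7 above the mean (49.8% of tested genes), library 2 had 1 (51.2%) and library 3 had 5 (48.6%). Library 2 was the lowest of its group for 5 of the 7, against 34.9% of all tested genes. The 7 genes were measured in the same libraries, so they are not independent counts. The shifts were small, with a median of 0.07 in log2(FPKM + 1) for 1 h library 3 and -0.06 for 12 h library 2. Without 1 h library 3 the difference of Oas3 at 1 h was -0.21 (adjusted p = 0.000926). What sets these libraries apart was not tested.

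**Figure D5:**
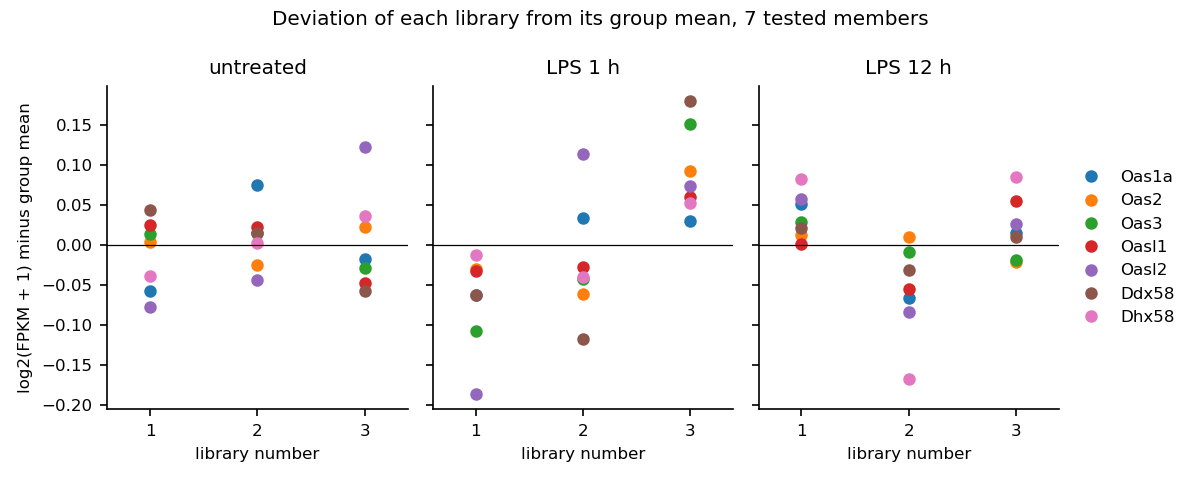
Deviation of each library from its group mean in log2(FPKM + 1) (y axis) for the 7 tested genes, by library number (x axis; the numbers have no order) and group (panels). All 7 points lie above 0 in 1 h library 3 and in 12 h library 1, and none does in 1 h library 1.

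The order of levels was nearly the same in the 3 groups. Oasl1 came before Oas1a and Oas1a before Oas3 in each, with no overlap between neighbours. Oas2 was in place 4 in untreated cells and at 1 h. Below it, Ddx58, Dhx58 and Oasl2 were not separable before treatment (2.68, 2.55 and 2.53 FPKM, with overlapping libraries). At 12 h Oasl2 had passed Oas2 to take place 4, at 21.0 ± 1.11 against 13.2 ± 0.186 FPKM, and Ddx58 (10.2 ± 0.215) and Dhx58 (8.97 ± 0.97) no longer overlapped. The 5 OAS genes summed to 52.3 ± 0.87 FPKM in untreated cells, 53.2 ± 2.73 at 1 h and 211.9 ± 6.33 at 12 h. Of that sum, Oasl1 made up 42.3% ± 0.912 before treatment and 49.9% ± 0.823 at 12 h, and Oasl2 went from 4.85% ± 0.566 to 9.91% ± 0.26. Oas1a fell from 24.3% ± 0.931 to 18.8% ± 0.352 of the sum, Oas2 from 10.4% ± 0.378 to 6.24% ± 0.247 and Oas3 from 18.1% ± 0.236 to 15.1% ± 0.463. For each of the 5 shares the 12 h and untreated libraries did not overlap (exact permutation p = 0.1, the smallest possible), so the Oasl pair took a larger part of a larger total.

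Promoter sequences of some of these genes were searched for short sequence patterns. RefSeq windows (build GRCm38.p6) from 250 bases before to 50 bases after the start site were at hand for 6 of the 9 genes: Oas1a, Oas3, Oasl1, Oasl2, Ddx58 and Ifih1. They were searched on both strands for the core of the interferon-stimulated response element (GAAA, any 2 bases, GAAA), a site of IRF factors. It was found in 4 of the 6 windows, and in 3.44% of all 32851 promoter windows of that table. The set consists of known interferon-stimulated genes, so this difference is no finding apart from the choice of genes. The 150 bases before the start site are shown for the 2 genes with the match upstream, with matches in capitals. In Oas1a, 2 overlapping matches span positions -20 to -5 (start site at 1). In Oas3, 1 match spans positions -75 to -66.
Oas1a, chr5:120907526-120907675, minus strand: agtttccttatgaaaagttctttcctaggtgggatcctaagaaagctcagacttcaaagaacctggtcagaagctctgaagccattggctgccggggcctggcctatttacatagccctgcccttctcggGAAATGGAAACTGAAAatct
Oas3, chr5:120777660-120777809, minus strand: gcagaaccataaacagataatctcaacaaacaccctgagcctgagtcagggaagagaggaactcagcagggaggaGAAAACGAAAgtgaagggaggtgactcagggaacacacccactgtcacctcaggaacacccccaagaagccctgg

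In Ddx58 and Ifih1 the match lay just after the start site, at positions 3 to 12 on the opposite strand and 33 to 42, shown here with 8 bases on each side and the match in capitals.
Ddx58, chr4:40239806-40239831, minus strand: tgaggcagTTTCGATTTCctatggcc
Ifih1, chr2:62646206-62646231, minus strand: agagaatcGAAACAGAAAccgatctg

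The windows of Oasl1 and Oasl2, the 2 genes with the largest increases, held none of these exact letters, which says nothing about a factor's binding there. The NF-κB form (GGGA, any 2 bases, TTCC) was found in 0 of the 6 and in 1.47% of all windows. With so low a share, 0 of 6 does not set these genes apart. The matches are descriptions of sequence, and binding was not measured.

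Among genes annotated as protein-coding, the genome places 9 OAS genes side by side on mouse chromosome 5 (GENCODE M21), 6 of which were listed and 5 tested. Oas2, Oas3, Oas1g and Oas1a rose at 12 h by 1.14 to 1.88, while Oas1c, in the stretch between Oas3 and Oas1g, rose by 0.37 (1.44 ± 0.233 to 2.15 ± 0.227 FPKM, adjusted p = 0.000372). Of the 3 protein-coding genes on each side, Rasal1 fell by 0.48 and Ptpn11 was at 0.05, short of the threshold (adjusted p = 0.205); the others were not analysed here. Of the 3 on each side of the separate pair of Oasl2 and Oasl1, Sppl3 was tested, and it fell by 0.44.

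The summed level of Oas1a, Oas1g, Oas2 and Oas3 was 33.1 ± 0.667 FPKM in untreated cells, 33.0 ± 2.24 at 1 h and 107.9 ± 2.46 at 12 h (SD, n = 3). This sum leaves out Oasl2, which also encodes an active synthetase. The sum at 12 h was above that of every earlier library, and the untreated and 1 h libraries overlapped. Of 9 other genes of the 2-5A pathway looked for, 4 were listed and 3 tested. At 12 h, Oas1g and Oas1c were called higher and none lower (66.7% higher, against 41.1% of all tested genes; median over the 3 of 0.37). At 1 h, Abce1, whose product recycles ribosomes, was called higher and none lower (33.3% higher, against 24.1%; median 0.04). The rise of Abce1 was 0.14 (adjusted p = 0.00126), a call that quantile normalization ended (0.05, adjusted p = 0.131).

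Genes that carry the signal of the RIG-I-like receptors were mixed. Of 32 looked for, 20 were tested, of which 10 were called higher and 4 lower at 12 h (median difference 0.10, against 0.03 over all tested genes). The shares, 50% higher and 20% lower, stood beside 41.1% and 40.6% of all tested genes, so the share of higher calls was near the background. Irf7, a transcription factor for interferon genes, rose most, from 9.67 ± 1.05 to 75.9 ± 5.84 FPKM (log2 difference 2.85, adjusted p = 2.15e-13). The kinase gene Ikbke rose at both times (0.87 at 1 h and 1.42 at 12 h), as did Tank (0.84 and 0.59), a scaffold for that kinase family. Mavs, the shared adaptor of RIG-I and MDA5, fell by 0.37 at 1 h (adjusted p = 1.69e-06) and was lower by 0.34 on the log2 scale at 12 h (difference -0.34, adjusted p = 1.1e-06). Trim25, a ubiquitin ligase for RIG-I, fell by 0.30 at 1 h and was higher by 0.14 at 12 h, a call that was lost under quantile normalization (0.04, adjusted p = 0.28). The RNA helicase gene Dhx9 (-0.45) and Prkra (-0.59), an activator of the kinase PKR, fell at 12 h. At 1 h, 9 of the 20 were called higher and 6 lower (45% and 30%, against 24.1% and 34.9% of all tested genes).

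Of 22 other sensors and binders of nucleic acids, 13 were tested. Mnda (0.167 FPKM in untreated cells, 0.271 at 1 h and 2.93 at 12 h) and Ifit3 (0.441, 0.312 and 3.62) reached the filter only through their 12 h level, so they had to differ and are left out of the count; this was decided with their values known. Of the other 11, 8 were called higher and 3 lower at 12 h (72.7% and 27.3%, against 41.1% and 40.6% of all tested genes), with a median difference of 0.72. Here and in the lists below, the shares of all tested genes still include genes that reached the filter only through 12 h. Ifit1, whose product binds viral RNA ends (2.06), and Ifi204, a DNA sensor of the PYHIN family (2.03), had the largest differences of the 11. Eif2ak2, which encodes PKR, rose by 0.72 and Tlr9, a receptor for bacterial and viral DNA, by 0.55. The 3 that fell were Tlr13 (-0.56), a receptor for bacterial ribosomal RNA, Tlr7 (-0.49), a receptor for single-stranded RNA, and Mb21d1 (-0.15), which encodes the DNA sensor cGAS. At 1 h, 2 of the 11 were called higher, Ifit1 (0.25, adjusted p = 0.0427) and Mb21d1 (0.19), and 4 lower, among them Tlr13 (-0.28) and Ifit2 (-0.20, adjusted p = 0.0463). These shares of 18.2% and 36.4% were near the 24.1% and 34.9% of all tested genes. The calls for Ifit1 and Ifit2 at 1 h held in 12 and 9 of 18 alternatives.

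Of 11 tested genes for the clearance and editing of nucleic acids, the exonuclease gene Isg20 (0.483 FPKM in untreated cells, 0.574 at 1 h and 3.96 at 12 h) also reached the filter only through 12 h. Of the other 10, 4 were called higher and 6 lower at 12 h (40% and 60%, against 41.1% and 40.6% of all tested genes; median difference -0.37). At 1 h none was called higher and 3 lower (30%, against 34.9%). At 12 h Adar, which edits double-stranded RNA, rose by 0.63 and Trex1, a DNA exonuclease, by 0.62, while Rnaseh2a, a subunit of RNase H2, fell by 0.51. Of 7 tested genes of the ZBP1 cell death pathway, 5 were called higher and 1 lower at 12 h (71.4% and 14.3%, against 41.1% and 40.6% of all tested genes; median difference 0.16), while Zbp1 itself was at or near 0. Nlrp3, an inflammasome sensor, was up by 3.16 at 1 h and by 1.05 at 12 h. Mlkl, the executor of necroptosis, rose by 0.87, Casp6 fell by 0.84, and Cflar, an inhibitor of caspase-8, was up by 1.86 at 1 h and 0.92 at 12 h. At 1 h, 2 of the 7 were called higher and 4 lower (28.6% and 57.1%, against 24.1% and 34.9%).

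In the type I interferon relay, 8 genes were tested, of which Socs1 (0.71 FPKM in untreated cells, 0.747 at 1 h and 2.47 at 12 h) reached the filter only through 12 h. Of the other 7, 5 were called higher at 12 h and none lower (71.4% higher, against 41.1% of all tested genes; median difference 0.55). Isg15 (3.57), Usp18 (2.08), which dampens interferon signaling, Irf9 (0.66) and Stat2 (0.55) were among them. At 1 h, 2 of the 7 were called higher and 3 lower (28.6% and 42.9%, against 24.1% and 34.9%), with Irf1 up by 1.25 (adjusted p = 9.7e-11), Isg15 up by 0.64 (adjusted p = 0.000132) and Stat2 down, with a log2 difference of -0.70 (adjusted p = 3.9e-07). Stat2, a transcription factor of the interferon response, was at 2.71 ± 0.246 FPKM in untreated cells, 1.29 ± 0.133 at 1 h and 4.43 ± 0.149 at 12 h. The interferon-β gene Ifnb1 was below the filter, at 0, 0 and 0.0721 FPKM in untreated cells, 0.547, 0.146 and 0.22 at 1 h, and 0.139, 0.275 and 0.221 at 12 h. All its treated libraries were above all untreated ones, at levels too low for a test in the fit.

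The genes outside the set whose profiles over the 9 libraries were closest to the mean of the 7 tested genes were sought by the Euclidean distance between centred log2(FPKM + 1) values, among 4597 genes with at least 5 FPKM in their highest group. Genes whose symbols begin or end like clone or locus names were left out of that search. The closest profiles found were the following. The genes were Tor3a (distance 0.196), Ms4a6d (0.209), Ifitm3 (0.212), Aoah (0.215) and Stap1 (0.239). Their differences at 12 h were 1.68, 1.70, 1.76, 1.89 and 1.78, and their levels at 12 h ran from 6.43 FPKM for Ms4a6d to 342 for Ifitm3. For single genes, the closest profile to Oas3 was Irgm1 (0.186), to Dhx58 Phf11d (0.193), to Ddx58 Tor3a (0.257), to Oas2 Cfp (0.147) and to Oas1a Pla2g5 (0.234). Oasl1 was closest to Pou2f2 (0.211) and Oasl2 to Slfn4 (0.303). Of the genes named here, Ms4a6d, Aoah, Phf11d, Pou2f2 and Slfn4 met the condition of 5 FPKM only through 12 h. Slfn4 was at 0.158 FPKM in untreated cells, 0.238 at 1 h and 6.23 at 12 h, so it reached the filter only through 12 h. Its closeness to Oasl2 is on the log2(FPKM + 1) scale, where the added 1 shrinks differences of low genes.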

How the data were processed

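Per the labels' protocols, RNA isolated with TRIzol went into stranded mRNA libraries (TruSeq). Per the submitters' processing notes, Trimmomatic, HISAT2, Cufflinks, HTSeq and DESeq were used; versions and roles are not given in the sources used here. The notes name GRCh38, a human build, for these mouse genes, so no position was taken from the files. The authors deposited 1 table of FPKM per gene and library, with a p-value, a q-value and a score per gene; the test behind them is not given in the sources used here, and they called no gene here.

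Genes with a mean of at least 1 FPKM (5643 of 6462) were fitted as log2(FPKM + 1) with 1 mean per group over the 9 libraries in limma 3.58.1 (R 4.3.3; eBayes with trend), with Benjamini-Hochberg adjustment over all tested genes and a threshold of 0.05. The added 1 shrinks differences of low genes. The fit was tested on simulated data. Ratios within libraries were compared by two-sided exact permutation tests. The 9 genes, the 6 pathway lists (100 entries) and the tests were chosen with earlier results of these data known. By rule, the text names the 9 genes, the pathway genes with the largest differences and the nearest profiles; further pathway genes (Mavs, Trim25, Eif2ak2, Tlr9, Irf9, Stat2 and Ifit2 among them) were chosen for their role after their values were seen. Promoters were matched by the gene identifier in the table. Some pathway results are not reported here, and the counts of their lists leave them out. There were 10 alternatives, and 9 fits each left out 1 library.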

Additional observations from a re-analysis of the deposited data

How the results depend on the processing

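At 12 h, against untreated cells and against 1 h, the count of 7 higher genes of the set was 8 without a filter, which added Ifih1. It was 6 with a mean of at least 5 FPKM, which left Dhx58 untested. Of these 6, Oasl2 (2.53 FPKM in untreated cells, 2.88 at 1 h and 21.0 at 12 h) and Ddx58 (2.68, 2.57 and 10.2) reached that filter only through 12 h. They had to differ there, so their calls under it add no support. The count was 7 under the other alternatives and without each library. At 1 h the count of 1 lower gene became 0 without a filter, with quantile normalization, with median-of-ratios scaling, with eBayes without trend and with only the 6 libraries compared, and ranged from 0 to 2 when single libraries were left out. The count of 0 higher genes became 1 with quantile normalization and ranged from 0 to 1 without single libraries. Differences at 1 h that changed sign were those of Ddx58 (0.10 with quantile normalization, and -0.14 to 0.0074 without single libraries), Dhx58 (0.057 with quantile normalization) and Oas1g (-0.035 to 0.14 without single libraries). Library numbers did not pair the libraries: residuals of same-numbered libraries correlated at -0.0666 to 0.128, and with the replicate block 3292, 4591 and 4807 genes were called at 1 h, at 12 h and between them, against 3330, 4611 and 4823 without the block, with no change in the counts of the set. Beyond what fewer tested genes or libraries bring, the cause was not tested. The number of fragments behind each value is unknown, which limits Ifih1, Zbp1 and Ifnb1 most.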

Other observations

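Several relatives of the set lay below the filter on level and are given as values only. Ddx60, a helicase linked to RIG-I signaling, was at 0.146 FPKM in untreated cells, 0.0918 at 1 h and 0.678 at 12 h. Pyhin1 was at 0.0901, 0.0317 and 1.20 FPKM, and Tlr3, a receptor for double-stranded RNA, at 0.713, 0.705 and 1.498. Oas1d, the last gene of the OAS cluster, was at 0.0169, 0.0255 and 0.0909 FPKM.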
